A study of Homo sapiens with 6 samples.

Results

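Keratin genes and the keratin-associated protein gene KRTAP3-1 were followed in HCT15 cells, an established line from a human colorectal cancer. The group holds 10 genes, KRT8, KRT10, KRT18, KRT19, KRT20, KRT23, KRT80, KRT81, KRT86 and KRTAP3-1, found by gene symbol among 12793 rows of the expression table. A row was found for 8 of them. KRT20 and KRT23 were not analysed here. KRT81 and KRT86 lay below the level needed for testing, a mean of 1 FPKM, so 6 of the 10 were among the 11451 tested genes. FPKM count fragments per length of transcript and per sequencing total, so levels of different genes can be compared.

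RNA was sequenced from 6 libraries. The 3 control libraries came from wild-type HCT15 with a control guide (sgctrl), and the 3 others from HCT15 labelled RBM15 knockout (sgRBM15), made with CRISPR/Cas9. RBM15 binds RNA and guides the m6A methyltransferase to its targets, and the study asked what its loss does inside the tumour cells. All libraries were grown in the same serum-containing medium. The sources used here do not say whether the knockout line is 1 clone or a pool, or whether replicate libraries are separate cultures. P-values therefore reflect only the scatter among these libraries, possibly a technical one. RBM15 mRNA itself was higher under the knockout label (17.3, 18.5 and 18.03 FPKM) than with the control guide (5.97, 5.89 and 5.51 FPKM). A Cas9 cut need not lower the mRNA, so these values neither support nor contradict the labels, and each direction below rests on the labels.

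Keratins are the intermediate filament proteins of epithelial cells. An acidic type I keratin pairs with a basic type II keratin, and the pairs build filaments that are anchored at desmosomes and give the cell its mechanical strength. KRT8 (type II) with KRT18 and KRT19 (type I) form the filaments of simple epithelia such as the colon. KRT10 is a type I keratin best known from differentiating epidermis, KRT80 is a type II keratin found in many epithelia, and KRT81 and KRT86 are type II keratins of hair. Keratin-associated proteins such as KRTAP3-1 form the matrix around keratin filaments in the hair shaft.

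The genes lie in both human keratin clusters (GENCODE 29 on GRCh38). On chromosome 12 lie KRT80 at 52168996 to 52192000, KRT86 at 52249300 to 52309163, KRT81 at 52285913 to 52291534, KRT8 at 52897187 to 52949954 and KRT18 at 52948871 to 52952901. On chromosome 17 lie KRT10 at 40818117 to 40822595, KRTAP3-1 at 41008521 to 41019324 and KRT19 at 41523617 to 41528308. KRT18 and KRT86 are on the plus strand and the others on the minus strand. Some of these genes cannot be fully separated by sequencing reads. Exons of KRT8 and KRT18 overlap on opposite strands over 525 bases, which is 16.3% of the exonic bases of KRT18 and 7.63% of those of KRT8, and whether counting used strand was not given in the sources used here. Of all windows of 150 bases in KRT81 transcripts 25.1% also occur in KRT86 transcripts, and 20.4% of the KRT86 windows occur in KRT81. No such window of KRT10, KRT19, KRT80 or KRTAP3-1 was found in another gene's transcripts.

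The coding sequences of KRT81 and KRT86 share 1 unbroken run of 605 identical bases that starts at coding base 61 in both. Its first 120 bases are shown as an example of sequence that both genes hold.
KRT81 and KRT86: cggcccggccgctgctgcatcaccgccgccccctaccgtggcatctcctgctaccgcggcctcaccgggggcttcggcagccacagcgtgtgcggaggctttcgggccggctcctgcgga

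Promoter sequences were available from RefSeq (GRCh38.p14) for 4 of the 10 genes, KRT8, KRT10, KRT20 and KRTAP3-1. The 200 bases before the RefSeq start are shown for KRTAP3-1, for KRT10 in the same cluster, which differed in the opposite direction, and for KRTAP2-3, another keratin-associated gene nearby, which is described below. Capitals mark TATATAA, the TATA box. They also mark TTTATG, a sequence of the kind bound by CDX factors. The last letters marked are TGACG, the core of cAMP response elements. The AP-1 site TGANTCA and the GC box GGGCGG were searched too and matched none of the 3 windows, and every search covered both strands. The letters were chosen after the sequences were seen, and the marked sites overlap no other marked site.
KRTAP3-1, chr17:41009129-41009328, minus strand: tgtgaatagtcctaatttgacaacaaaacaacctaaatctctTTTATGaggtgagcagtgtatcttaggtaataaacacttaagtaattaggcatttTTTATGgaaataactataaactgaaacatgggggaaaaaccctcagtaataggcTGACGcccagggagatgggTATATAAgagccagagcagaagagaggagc
KRTAP2-3, chr17:41060115-41060314, minus strand: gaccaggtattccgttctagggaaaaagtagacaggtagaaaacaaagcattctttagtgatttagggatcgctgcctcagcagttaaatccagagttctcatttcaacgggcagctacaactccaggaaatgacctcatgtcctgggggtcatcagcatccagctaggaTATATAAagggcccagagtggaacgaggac
KRT10, chr17:40822615-40822814, minus strand: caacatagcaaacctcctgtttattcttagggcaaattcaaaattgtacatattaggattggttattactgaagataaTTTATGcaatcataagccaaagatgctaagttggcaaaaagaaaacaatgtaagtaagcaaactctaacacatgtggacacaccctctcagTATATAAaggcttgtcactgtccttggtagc

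All 3 windows shown hold TATATAA, beginning 30 bases before the start in KRTAP3-1 and KRTAP2-3 and 31 bases before it in KRT10. The windows of KRT8 and KRT20, which were searched too and are not shown, do not hold it. KRT8 matched none of the searched letters, and KRT20 matched only the CDX-type letters, at 29 bases before the start. Over 35116 promoter windows of the same length, 1.93% hold the TATA box letters and 7.59% the CDX-type letters. The cAMP element core is held by 18.4%, the AP-1 site by 5.38% and the GC box by 40.1%. TTTATG occurs in KRTAP3-1 at 158 and 103 bases before the start and in KRT10 at 122 bases before it. TGACG occurs only in the KRTAP3-1 window of the 3, at 49 bases before the start. TATATAA is held by KRTAP3-1 and KRTAP2-3, which were higher in the knockout-labelled libraries, and by KRT10, which was lower. KRT8, which was slightly higher there, lacks it. The part of any of these letters in the expression values was not tested.

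The 10 genes were chosen by their FPKM in these same libraries, control against knockout-labelled. Their differences between groups are therefore a description, with no test. Values are FPKM for control libraries 1 to 3 and then for libraries labelled knockout 1 to 3, with the mean ± SD of 3 libraries. The log2 difference is that of log2(FPKM + 1), knockout-labelled minus control, and it understates changes of genes at low levels. All 6 tested members passed the limma threshold (adjusted p of 0.05) that 54.5% of all tested genes passed, and nothing is read from that count because the choice used this contrast. Of these, 2 were higher (25.3% of all tested genes) and 4 lower (29.2%). The groups did not overlap for any of the 6 either, which held for 63% of all tested genes (29.6% higher and 33.4% lower).

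KRTAP3-1 had by far the widest difference among the members. It had control values of 4.23, 3.95 and 2.13 FPKM and knockout-labelled values of 26.5, 24.7 and 19.7 FPKM. Control library 3 was the lowest of its group and knockout-labelled library 3 of its own, and the lowest knockout-labelled value was well above the highest control. The means, 3.44 ± 1.14 and 23.7 ± 3.52 FPKM, gave a ratio of 6.89. On the log2 scale KRTAP3-1 differed by 2.50 (SE 0.20), and this value lay between 2.27 and 2.64 when any 1 library was left out. Of all tested genes, 99.9% had a smaller absolute difference.

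The abundant simple-epithelial keratins did not all differ in the same direction, and KRT19 differed more than KRT8 and KRT18. KRT8 had control values of 1269, 1307 and 1300.05 FPKM and knockout-labelled values of 1384, 1449 and 1339 FPKM, so it was slightly higher there. Its means were 1292 ± 19.9 and 1391 ± 55.5 FPKM, a ratio of 1.08, with a log2 difference of 0.11 (SE 0.033). The spread was wider in the knockout-labelled libraries, and 27.7% of tested genes had a smaller absolute difference. KRT18, the partner of KRT8, had control values of 1397, 1423 and 1444 FPKM and knockout-labelled values of 1315, 1268 and 1248 FPKM. It was lower there, with means of 1421 ± 23.5 and 1277 ± 34.2 FPKM, a ratio of 0.899 and a log2 difference of -0.15 (SE 0.028), and 39.2% of tested genes had a smaller absolute difference. KRT19, the smallest keratin, which lacks most of the tail domain, had control values of 450.0, 457 and 459 FPKM and knockout-labelled values of 360.4, 351 and 349.6 FPKM. The values within each group lay close together, with means of 455 ± 4.504 and 354 ± 5.75 FPKM, a ratio of 0.777 and a log2 difference of -0.36 (SE 0.024), and 74.6% of tested genes had a smaller absolute difference. The sizes for KRT8, KRT18 and KRT19 depended on scaling, without a change of sign. Quantile normalization gave 0.19 for KRT8, -0.051 for KRT18 and -0.29 for KRT19. For KRT19 the TPM scale gave -0.34 and median centring -0.33.

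**Figure D1:**
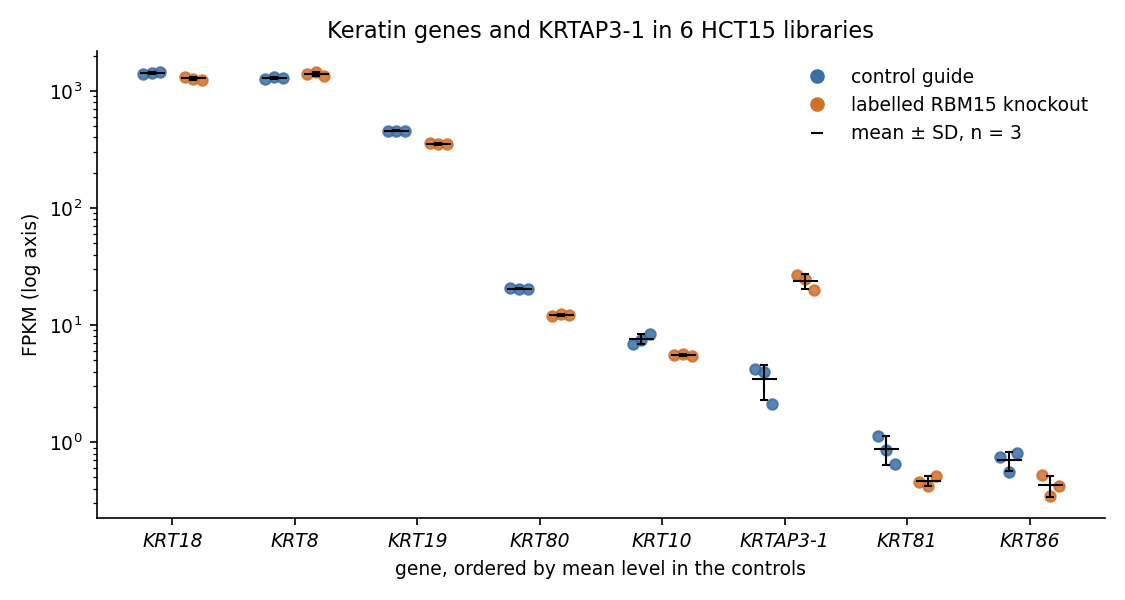
FPKM on a log axis for the 8 genes with a row, ordered by mean control level; points are single libraries (blue, control guide; orange, labelled RBM15 knockout), and black marks show the mean ± SD of 3 libraries. KRT18, KRT8 and KRT19 lie far above the rest, and KRTAP3-1 moves from 3.44 to 23.7 FPKM while KRT80 moves from 20.5 to 12.2 FPKM.

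The keratins of moderate level were lower in the knockout-labelled libraries. KRT80 had control values of 20.7, 20.2 and 20.5 FPKM and knockout-labelled values of 11.9, 12.5 and 12.2 FPKM, with little spread in either group. Its means were 20.5 ± 0.269 and 12.2 ± 0.287 FPKM, a ratio of 0.596, and its log2 difference of -0.70 (SE 0.038) was the lowest of the members. KRT10 had control values of 6.87, 7.52 and 8.39 FPKM and knockout-labelled values of 5.50, 5.71 and 5.44 FPKM. The control values were the more scattered, with means of 7.59 ± 0.764 and 5.55 ± 0.142 FPKM, a ratio of 0.731 and a log2 difference of -0.39 (SE 0.073).

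Both hair keratins were near the lower end of the table. KRT81 had control values of 1.13, 0.863 and 0.651 FPKM and knockout-labelled values of 0.458, 0.422 and 0.512 FPKM. KRT86 had control values of 0.749, 0.553 and 0.802 FPKM and knockout-labelled values of 0.523, 0.348 and 0.422 FPKM. Each was lower in every library labelled knockout than in any control, by narrow margins, and neither was tested. The long shared run shown above makes the division of reads between them uncertain.

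The order of levels differed between the groups at the top and in the middle, and not at the low end. In the controls it ran KRT18, KRT8, KRT19, KRT80, KRT10, KRTAP3-1, KRT81 and KRT86. In the knockout-labelled libraries it ran KRT8, KRT18, KRT19, KRTAP3-1, KRT80, KRT10, KRT81 and KRT86. Among neighbours in either order, only KRT81 and KRT86 overlapped over the libraries of a group. KRT8 and KRT18 changed places with a small margin: the lowest KRT8 value in the knockout-labelled libraries was 1339 FPKM and the highest KRT18 value 1315 FPKM.

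Ratios within a library do not depend on any single factor that scales the whole library. Quantile normalization is not such a factor and can change them. KRT8 over KRT18 was 0.909, 0.918 and 0.901 in the controls and 1.05, 1.14 and 1.07 in the knockout-labelled libraries, so it lay below 1 in every control and above 1 in every library labelled knockout. KRT19 over KRT18 was 0.320 ± 0.00236 in the controls and 0.277 ± 0.00302 in the knockout-labelled libraries (SD, n = 3 each), again without overlap. With the 9 keratin rows of the table summed by type, type II (KRT7, KRT8, KRT80, KRT81, KRT86) over type I (KRT10, KRT15, KRT18, KRT19) was 0.698 ± 0.00613 in the controls and 0.858 ± 0.0366 in the knockout-labelled libraries. The type I sum was 1886 ± 29.4 and 1638 ± 40.0 FPKM, and the type II sum 1316 ± 19.4 and 1405 ± 55.6 FPKM.

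**Figure D2:**
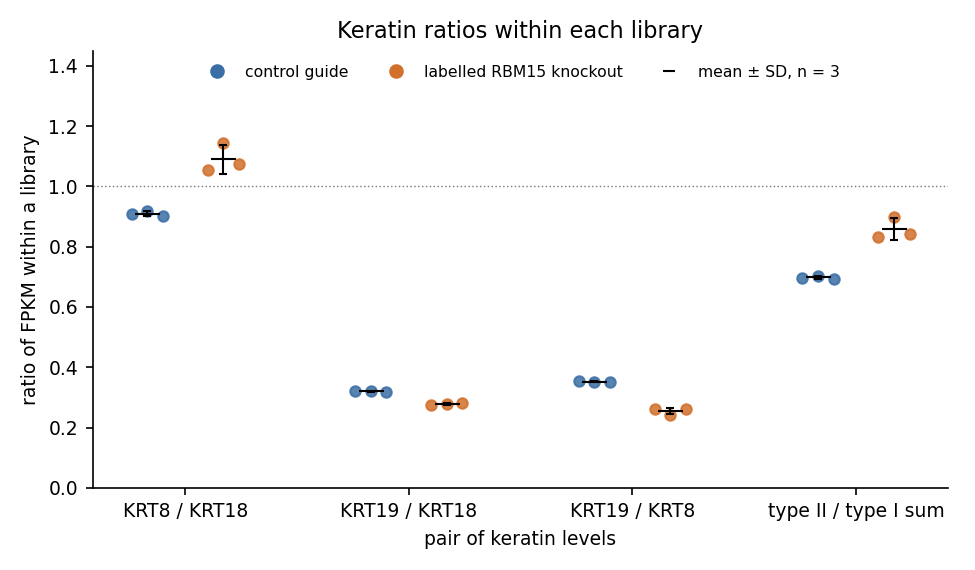
Ratio of FPKM within each library, from 0 on a linear axis, for 3 pairs of keratins and for the type II over the type I sum; points are libraries (blue, control guide; orange, labelled RBM15 knockout), black marks the mean ± SD of 3, and the dotted line a ratio of 1. KRT8 over KRT18 lies at 0.901 to 0.918 in the controls and at 1.05 to 1.14 in the knockout-labelled libraries.

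The total keratin level moved less than its parts. The 9 keratin rows summed to 3203 ± 46.7 FPKM with the control guide and 3043 ± 74.1 FPKM under the knockout label, which is 0.776% ± 0.00604 and 0.750% ± 0.0128 of the column sums (SD, n = 3 each). KRT8, KRT18 and KRT19 together made up 98.9% and 99.3% of that keratin sum. KRT8 alone went from 40.3% ± 0.230 to 45.7% ± 1.05 of it, KRT18 from 44.4% ± 0.189 to 42.0% ± 0.839, and KRT19 from 14.2% ± 0.0672 to 11.6% ± 0.231.

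**Figure D3:**
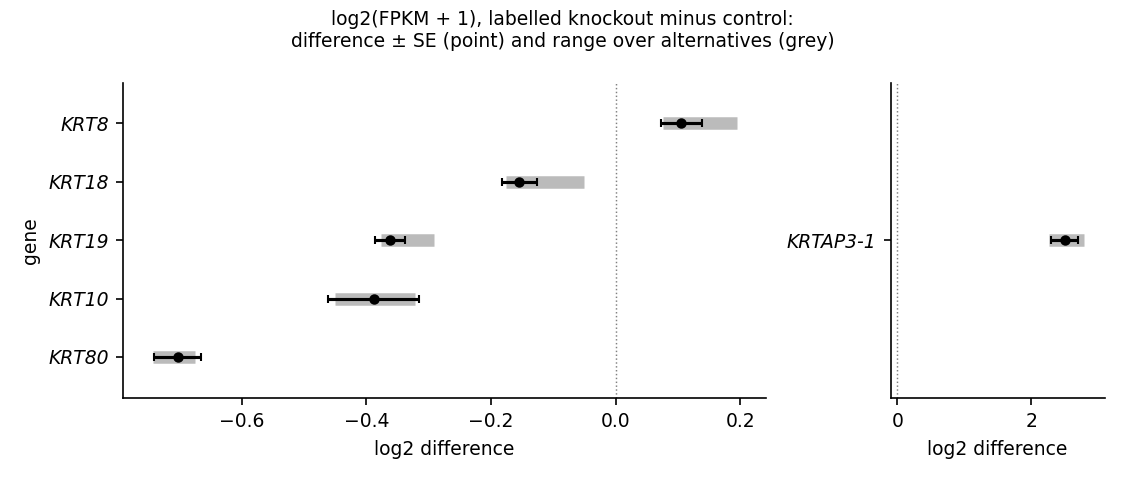
Difference of log2(FPKM + 1), labelled knockout minus control, for the 6 members above the level filter (points, with the SE as bars); grey bars span the values under the alternative settings. No bar reaches 0; KRT8 lies at 0.11 and KRT18 at -0.15, and KRTAP3-1 has its own axis because it lies at 2.50.

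The table held 3 other keratin or keratin-associated rows. KRTAP2-3, another keratin-associated gene of the hair shaft, had control values of 0.564, 0.418 and 0.767 FPKM and knockout-labelled values of 2.003, 1.66 and 2.44 FPKM. Its log2 difference was 0.94 (SE 0.13) and the groups did not overlap. It passed the level filter only through the knockout-labelled libraries, so no test is given. Of its windows of 150 bases 29.5% also occur in KRTAP2-4, 21.1% in KRTAP2-1 and 20.0% in KRTAP2-2, so its level is uncertain. KRT7, a type II keratin of ductal epithelia, fell from 2.21 ± 0.373 to 1.37 ± 0.124 FPKM (log2 difference -0.43, SE 0.10, limma adjusted p = 0.0112). KRT15, a type I keratin of basal cells, had control values of 1.96, 1.76 and 3.48 FPKM and knockout-labelled values of 1.94, 1.48 and 1.85 FPKM. Its groups overlapped and it did not pass (log2 difference -0.27, limma adjusted p = 0.249).

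KRTAP3-1 has few listed neighbours. Within 500 kb of its gene start in GENCODE, 4 other rows were listed. Only the 12220 of 12793 rows found in GENCODE could be placed, so others may lie there unseen. KRT15 and KRT19 start just beyond this limit. The GENCODE gene includes a longer transcript, so this start lies upstream of the RefSeq start used for the promoter window. KRTAP2-3 starts 40.8 kb upstream and KRT10 starts 197 kb downstream. SMARCE1, which encodes a chromatin remodelling subunit, starts 370.5 kb downstream, and its log2 difference was -0.030 (limma adjusted p = 0.865). The fourth row has no gene symbol and lay below the filter.

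Likeness of pattern was measured as the mean absolute difference, over the 6 libraries, of log2(FPKM + 1) deviations from the control mean. The 3 rows nearest KRTAP3-1 have no gene name, differ from it by 0.34 to 0.36, and include ENSG00000286235, which was listed at 0 in every control. Their control means were 0 to 0.092 FPKM, so they passed the level filter only through the knockout-labelled libraries. The measure includes scatter among replicates, which was wider for KRTAP3-1 (log2 SD within groups 0.325) than for KRT80 (0.026). Their distances are therefore not comparable. KRT80 had close matches, among them ANAPC16 (0.016) and SCD (0.019). ANAPC16, a subunit gene of the anaphase-promoting complex, stood at 26.3 ± 0.246 and 16.0 ± 0.192 FPKM.

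The labelled cell type was checked against 4 marker lists. Of 8 colonic epithelial markers 5 had a row: EPCAM, CDH1, CDH17, CDX2 and VIL1. Their summed level was 687 to 700 FPKM in the controls and 544 to 553 FPKM in the knockout-labelled libraries, and 4 of the 5 fell, where 29.2% of all tested genes did. Most of that sum is EPCAM. The microvillus gene VIL1 had the largest fall of the 5, from 16.98 ± 0.168 to 3.87 ± 0.222 FPKM. The adhesion protein gene EPCAM fell from 528 ± 5.30 to 415 ± 3.68 FPKM and the intestinal cadherin gene CDH17 from 5.24 ± 0.261 to 1.62 ± 0.184 FPKM, while CDH1 did not pass (122 ± 1.14 and 118 ± 2.27 FPKM). Of the 12 markers of basal keratinocytes and hair, 0 were listed. That marker list does not include KRT15, KRT81, KRT86, KRTAP2-3 or KRTAP3-1, basal-cell or hair genes described above that did have rows. Of 7 fibroblast markers only COL1A1 was listed, at 0.917 to 1.41 FPKM in the controls and 0.835 to 1.41 FPKM in the knockout-labelled libraries. Of 6 leukocyte markers only CD14 was listed, at 3.18 to 4.11 and 3.85 to 5.48 FPKM, and neither gene passed the test. The part of the lower epithelial markers in the keratin values was not tested, and in bulk RNA fewer cells of a type and less RNA per cell cannot be told apart.

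Genes around the keratin cytoskeleton, none of them members, were tested in the same fit across all genes. Of 19 genes that link or organize keratin filaments 18 were tested, 4 rose and 5 fell in the knockout-labelled libraries. That is 50% changed, beside 54.5% of all tested genes, and a median log2 difference of 0.016 beside -0.018. PLEC, which encodes plectin, the linker of intermediate filaments to other structures, rose from 20.6 ± 0.212 to 25.9 ± 0.686 FPKM (log2 difference 0.32, SE 0.036, limma adjusted p = 0.000428). EPPK1, which encodes epiplakin, a keratin-binding plakin, rose from 1.86 ± 0.0679 to 2.83 ± 0.150 FPKM. JUP, which encodes plakoglobin of the desmosomal plaque, fell from 86.0 ± 1.55 to 67.1 ± 1.81 FPKM (log2 difference -0.35, SE 0.032, limma adjusted p = 0.000165). MACF1, a spectraplakin gene, fell by 0.55 on the log2 scale. It no longer passed when control library 2 (-0.48), control library 3 (-0.44) or knockout-labelled library 1 (-0.42) was left out.

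Genes whose products modify, bind or cleave keratins moved in both directions. Of 24 such genes 23 were tested, 7 rose and 6 fell, which is 56.5% changed beside 54.5% of all tested genes (median log2 difference 0.028). HSPB1, a small heat shock protein gene, fell from 554 ± 9.10 to 354 ± 9.02 FPKM (log2 difference -0.64, SE 0.028, limma adjusted p = 1.02e-05). MAPK3, which encodes the kinase ERK1, fell from 47.1 ± 2.54 to 29.96 ± 1.10 FPKM, and the death receptor adaptor gene TRADD, whose product binds KRT18, from 9.70 ± 0.591 to 7.02 ± 0.286 FPKM. YWHAG, a 14-3-3 gene of the family that binds phosphorylated KRT18, rose from 74.7 ± 0.286 to 91.2 ± 1.58 FPKM.

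Other intermediate filament genes that were tested rose or did not pass. Of 18 such genes 8 had a row and 6 were tested, 4 rose and 0 fell (median log2 difference 0.38), where 25.3% of all tested genes rose and 29.2% fell. The nuclear lamina genes LMNB1 and LMNB2 rose from 72.4 ± 1.97 to 95.7 ± 1.38 FPKM and from 73.1 ± 0.449 to 94.98 ± 0.0598 FPKM. IFFO2 rose by 0.69 on the log2 scale at a low level. The nestin gene NES, counted among the 4, stood at 0.847 ± 0.127 and 1.43 ± 0.168 FPKM and entered the test only through the knockout-labelled libraries, so its call is no support. With a filter at a mean of 5 FPKM only LMNA, LMNB1 and LMNB2 remained to be tested and 2 rose.

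Transcription factor genes known to act on keratin genes in epithelia or hair fell more often than they rose. Of 32 listed 27 were tested, 5 rose and 15 fell, which is 74.1% changed beside 54.5% of all tested genes (median log2 difference -0.24). Of all tested genes 25.3% rose and 29.2% fell. The list was chosen with earlier results of these data known, so its share is a description and no test. CDX2 is in this list and also among the colonic markers. FOS and JUN, which encode subunits of AP-1, fell by 2.58 and 1.28 on the log2 scale. CEBPB fell from 40.4 ± 1.78 to 12.6 ± 0.562 FPKM. ELF3, an epithelial ETS factor gene, fell from 28.2 ± 1.04 to 10.9 ± 0.728 FPKM (log2 difference -1.30, SE 0.055, limma adjusted p = 9.25e-06). The number that rose was 3 without control library 2, 3 without knockout-labelled library 3 and 3 with a filter at 5 FPKM, while 15 fell without any 1 library. HOXC13 and FOXN1, regulators of hair keratin genes, were not analysed here.

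**Figure D4:**
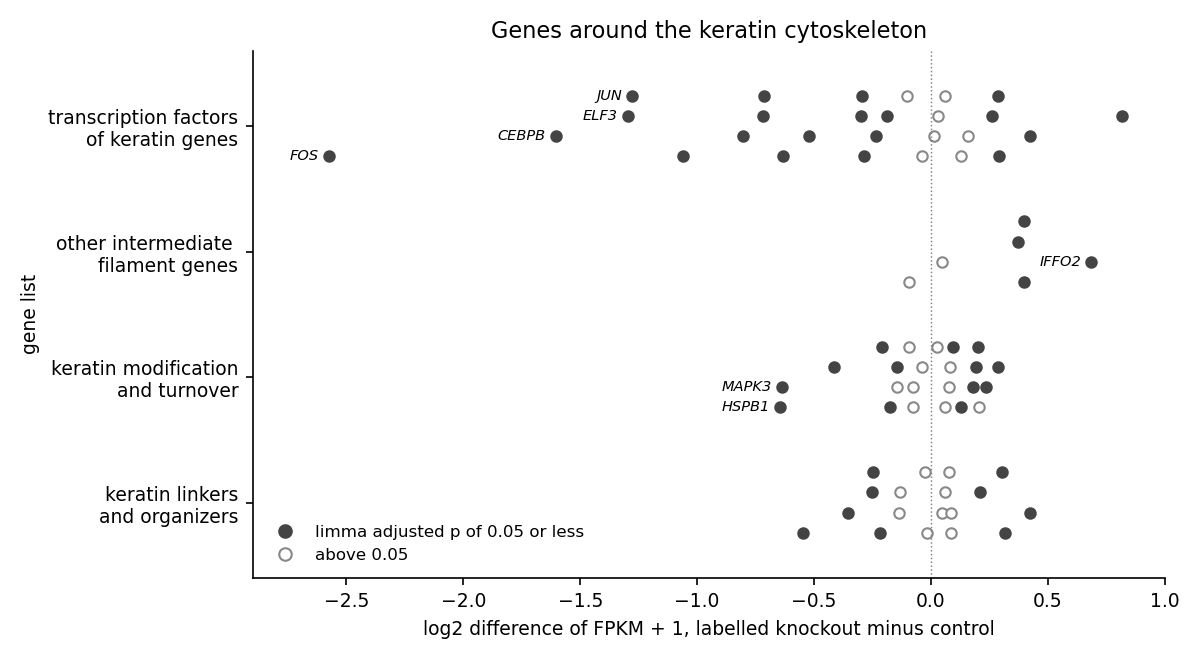
Difference of log2(FPKM + 1), labelled knockout minus control, for each tested gene of the 4 lists (1 point per gene, vertical offsets only separate points); filled points passed limma's adjusted p of 0.05. The transcription factor list extends to -2.58 at FOS, whereas the linker and organizer list has 4 filled points to the right of 0 and 5 to the left.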

How the data were processed

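The authors deposited 1 table of FPKM for 6 libraries, per the file headers; per the submitters' processing notes HISAT2 2.2.1, StringTie 2.0.4 and hg38 were used. Tool settings, annotation, strand use and any row filter: not given in the sources used here. Columns were matched to samples by name. Column sums were 402288 to 415057 FPKM, log2 levels correlated across genes at 0.990 to 0.992 within and 0.969 to 0.972 between groups, and no columns were identical. Low values showed no steps of whole reads (at most 0.93% of ratios between libraries in a window of 0.1%), so depth is unknown and precision rests on 3 libraries per group.

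Rows averaging 1 FPKM or more entered limma 3.58.1 (R 4.3.3) on log2(FPKM + 1), with a variance trend, no covariates and 2-sided p-values adjusted by Benjamini-Hochberg over 11451 genes. The fit was tested on simulated data. Exon overlaps and shared windows of 150 bases were computed on GENCODE 29. The members and lists were chosen with earlier results of these data known, so the share of a list beside that of all genes is a description. Named genes were all members, other keratin rows, up to 4 called genes per list with the largest difference, KRTAP3-1 neighbours within 500 kb and the 3 nearest patterns. Marker genes and SMARCE1, ANAPC16 and SCD follow the same rules, and 1 gene they name is not reported here. Alternatives left out each library in turn, added a replicate block, dropped the variance trend, set the pseudocount to 0.1, removed the filter or raised it to 5 FPKM, and rescaled by TPM, by medians or by quantiles.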

Additional observations from a re-analysis of the deposited data

How the results depend on the processing

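No member changed sign under any alternative that was run. Only the rescalings by TPM, medians or quantiles could have changed a sign. The groups of each member do not overlap, and the other alternatives keep the direction of such a difference. KRTAP3-1 ranged from 2.27 to 2.80 and KRT80 from -0.74 to -0.67 on the log2 scale. With a filter at a mean of 5 FPKM, 2 other intermediate filament genes changed, 2 of them higher, and 3 transcription factor genes were higher, since fewer genes were tested. Leaving out 1 library gave 3 to 5 higher transcription factor genes; the cause was not tested. The other list counts stayed within 1.5 times. Over all genes, 6245 changed, against 5083 with the filter at 5 FPKM and 5439 to 5663 without 1 library. The replicate numbers are shared by both groups but same-numbered libraries did not deviate together across all genes (correlations -0.035, -0.037 and 4.5e-05). No library correlated best with its own number. Such correlations cannot decide whether same-numbered libraries share a batch. With the number as a replicate block 5782 genes changed. KRT81 and KRT86 could be fitted only with no filter. The unknown depth leaves no counting error for genes near 1 FPKM.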

Other observations

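KRTCAP3 and KRTCAP2, named for keratinocytes and not keratin genes, were also listed. KRTCAP3 fell from 30.7 ± 0.690 to 24.8 ± 1.40 FPKM under the knockout label (SD, n = 3 each, log2 difference -0.30, limma adjusted p = 0.00184). KRTCAP2, which encodes a subunit of the complex that attaches sugars to proteins in the endoplasmic reticulum, stood at 71.8 ± 5.80 and 64.2 ± 6.20 FPKM, with overlapping groups (limma adjusted p = 0.134). FOSL1, an AP-1 gene that was chosen after its values were seen, stood apart from FOS and JUN: it went from 16.6 ± 1.42 to 30.0 ± 2.49 FPKM, the largest rise among the tested transcription factor genes of the list. CDX2, the intestinal homeobox gene, fell from 20.9 ± 0.138 to 9.52 ± 0.254 FPKM.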
